A study of Mus musculus with 6 samples.

Results

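Regulators of mitochondrial biogenesis and marker genes of oxidative muscle fibres were followed in gastrocnemius, a calf muscle of mixed fibre types, from male C57B1/6 mice that were young or aged. The set holds 10 genes of the 18193 genes that the platform's gene table names singly: Ppargc1a, Ppargc1b, Esrra, Esrrg, Ppara, Ppard, Nrf1, Tfam, Mb and Ckmt2. They were taken by symbol, with every probe set that the table assigns to 1 of these symbols and no other. All 10 were represented, by 25 probe sets. A probe set is a group of short oligonucleotides on the array that together report 1 transcript.

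The study put total RNA of whole muscle on 6 Affymetrix Mouse430_2 arrays. The young group had 3 arrays, replicates 1, 2 and 3, and the aged group had 3, replicates 51, 52 and 53. Both groups are labelled as normal mice, and no age, allele or treatment is named for either. The labels give the 3 young arrays 1 sample number and the 3 aged arrays 1 other, and the design text speaks of 2 samples and 6 replicates. The p-values therefore measure only the spread between these arrays, which may be technical. All 10 skeletal muscle fibre markers, among them Acta1 and Ckm, were above the filter on dim probe sets. All 13 fibroblast and tendon markers were too, so passing this filter does not by itself tell the tissue. No deposited signal was 0.

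PGC-1α and PGC-1β, encoded by Ppargc1a and Ppargc1b, are coactivators that bind nuclear receptors and other transcription factors and raise the expression of mitochondrial genes. Among their partners are the estrogen-related receptors (Esrra, Esrrg) and the peroxisome proliferator-activated receptors (Ppara, Ppard), which act on genes of respiration and of fat oxidation. Nuclear respiratory factor 1 (Nrf1) switches on respiratory chain genes and Tfam, and the Tfam protein enters the mitochondrion to package and transcribe its DNA. Oxidative fibres are rich in the products of Mb (myoglobin, which stores oxygen) and Ckmt2 (the sarcomeric mitochondrial creatine kinase, which passes energy from the mitochondrion to creatine).

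Promoter sequence from RefSeq (build GRCm38.p6) was used for 9 of the 10 genes, in 15 windows running from 250 bases before to 50 after an annotated start. The 250 bases before the start are shown for 3 regulators of the cascade and for Mb and Ckmt2, the 2 members with an unadjusted p under 0.05. Each is on the minus strand of its chromosome and reads 5′ to 3′. Capitals mark matches, on either strand, to motifs that were chosen with the windows in view.
Ppargc1a, chr5:51567726-51567975: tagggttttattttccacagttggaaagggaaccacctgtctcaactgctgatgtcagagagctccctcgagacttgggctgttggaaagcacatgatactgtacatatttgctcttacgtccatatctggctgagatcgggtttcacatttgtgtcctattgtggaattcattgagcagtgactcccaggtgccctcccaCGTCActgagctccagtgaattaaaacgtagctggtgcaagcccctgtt
Esrra, chr19:6921809-6922058: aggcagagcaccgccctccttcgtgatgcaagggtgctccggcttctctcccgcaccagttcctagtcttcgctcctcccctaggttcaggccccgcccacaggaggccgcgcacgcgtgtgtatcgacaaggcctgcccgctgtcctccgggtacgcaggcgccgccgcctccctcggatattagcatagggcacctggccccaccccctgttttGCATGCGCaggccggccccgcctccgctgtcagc
Tfam, chr10:71238045-71238294: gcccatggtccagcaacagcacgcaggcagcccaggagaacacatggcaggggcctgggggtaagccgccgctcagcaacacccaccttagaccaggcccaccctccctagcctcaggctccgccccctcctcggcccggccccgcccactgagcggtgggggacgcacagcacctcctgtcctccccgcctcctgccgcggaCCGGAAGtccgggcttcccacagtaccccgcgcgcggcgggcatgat
Mb, chr15:77022728-77022977: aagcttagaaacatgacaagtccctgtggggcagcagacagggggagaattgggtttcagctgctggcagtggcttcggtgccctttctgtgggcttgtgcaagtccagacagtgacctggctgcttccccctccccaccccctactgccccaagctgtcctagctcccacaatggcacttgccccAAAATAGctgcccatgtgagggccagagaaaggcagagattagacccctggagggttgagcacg
Ckmt2, chr13:91876886-91877135: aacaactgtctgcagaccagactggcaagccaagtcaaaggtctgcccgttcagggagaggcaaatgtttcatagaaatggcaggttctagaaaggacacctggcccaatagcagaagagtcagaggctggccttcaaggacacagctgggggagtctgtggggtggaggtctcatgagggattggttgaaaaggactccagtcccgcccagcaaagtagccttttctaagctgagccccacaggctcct

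In the Ppargc1a window the capitals mark TGACG, a half-site of CREB, on the reverse strand, first base 49 before the start. TGACG occurs in 20.8% of all 32851 windows of this length. In the set it is in 4 of the 15 windows, of Ppargc1a, Ppara, Ppard and Mb (for Mb not the printed window). In the Esrra window GCATGCGC, the core of the NRF1 motif, begins 34 bases before the start (2.71% of all windows), and Ppara was the other gene of the set with a match. In the Tfam window CCGGAAG, the ETS core that GABP (also called NRF-2) binds, begins 47 bases before the start (8.86% of all windows). In the Mb window AAAATAG, the end of the MEF2 consensus, begins 64 bases before the start (4.22% of all windows). Counted from another annotated Mb start, the same letters begin 4 bases before it, and the remaining Mb window holds no match to this motif. The half-site of the estrogen-related receptors, AAGGTCA, is in 4.72% of all windows and its letters are in 0 of the 15 windows of the set. The Ckmt2 window holds none of the 5 motifs. The motifs overlap one another nowhere in the printed windows.

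In aged muscle the myoglobin and mitochondrial creatine kinase transcripts were lower on all 3 arrays (changes of -44.9% and -39.8%), but neither passed the test after adjustment. The coactivators Ppargc1a and Ppargc1b, the receptor Esrra and the mitochondrial DNA factor Tfam were bright, and the interval of each gene's brightest probe set included 0. Esrrg, Ppara, Ppard and Nrf1 were dimmer and scattered, with standard errors of 0.72 or more on the log2 scale. Of the 25 probe sets 18 lay above the filter on dim probe sets (a mean log2 signal of 9.08, a signal of about 540), and they covered 9 genes. Ppard had no probe set above it. Of the 18, 0 passed an adjusted p of 0.05 in limma's moderated test with Benjamini-Hochberg adjustment, where 1.05% of all 22519 tested probe sets did (0.311% higher and 0.742% lower in aged muscle). At an unadjusted p under 0.05 there were 2 (Mb and Ckmt2), against 10% of all tested probe sets. Aged and young arrays did not overlap on 4 of the 18, with 2 higher and 2 lower in aged muscle, against 16.2% of all (7.41% higher and 8.74% lower). These counts are small, and nothing particular to the set is read from them.

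**Figure D1:**
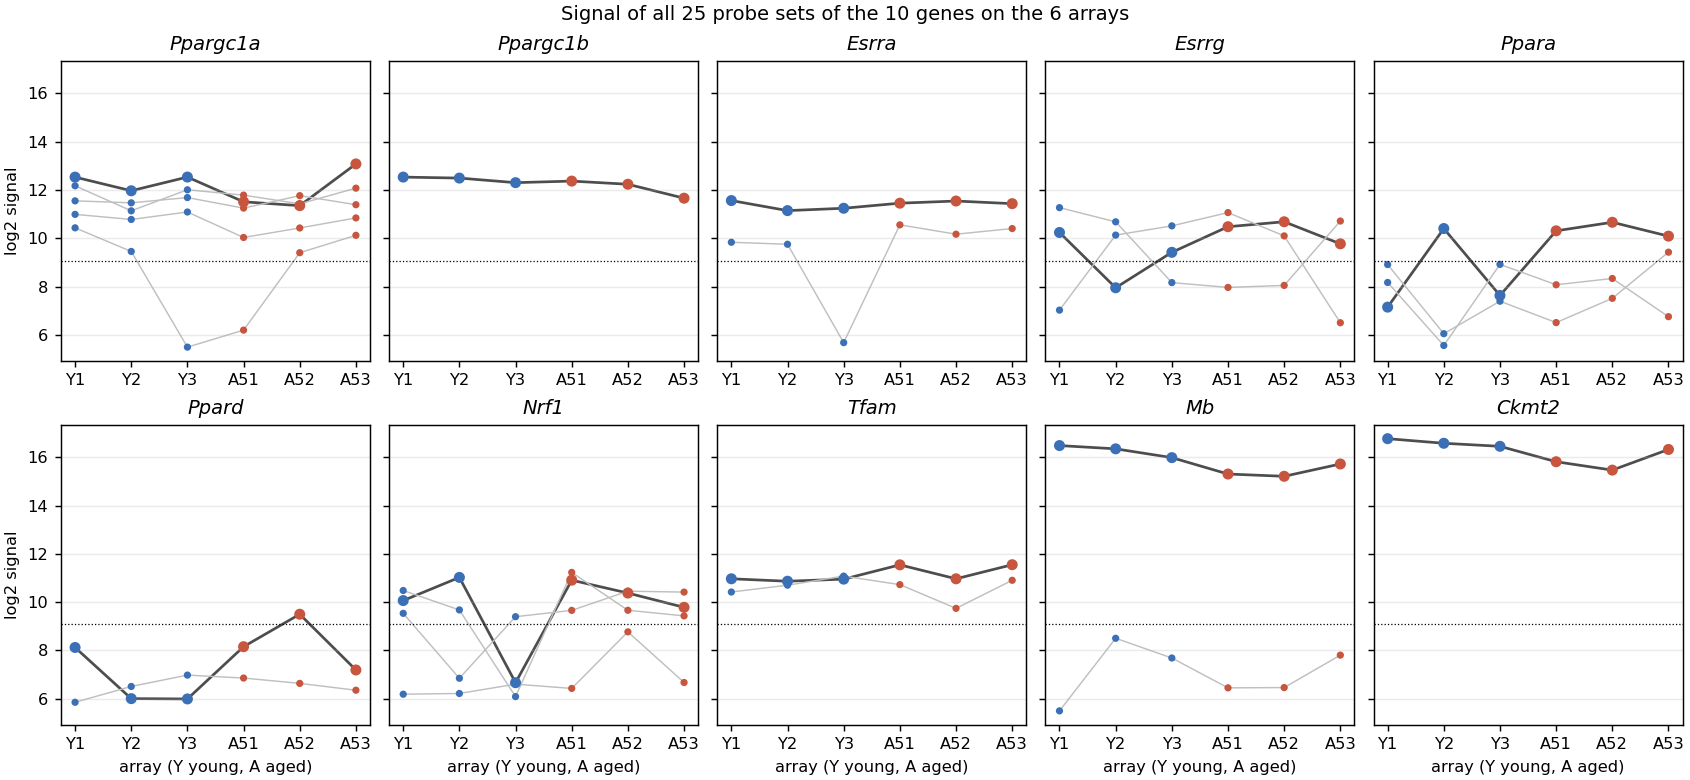
Log2 signal (vertical axis) of all 25 probe sets on the 6 arrays (horizontal axis; young replicates in blue, aged in red). Each line joins the values of 1 probe set and marks no order of the arrays, large points with a dark line are the brightest probe set of the gene, and the dotted line is the filter at 9.08. The brightest probe set of Mb and that of Ckmt2 lie above 15 on every array with young above aged, whereas several probe sets of Esrrg, Ppara, Nrf1 and Ppard cross the filter from array to array.

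Myoglobin had 1 bright probe set, brighter than 99.3% of all probe sets. Its log2 signal was 16.48, 16.35 and 15.99 on the young arrays and 15.31, 15.21 and 15.72 on the aged arrays. The groups did not overlap, with young replicate 3 the lowest of the young and aged replicate 53 the highest of the aged arrays. The mean was 16.27 ± 0.26 in young and 15.41 ± 0.27 in aged muscle (SD, n = 3 each). The change, aged minus young, was -0.86 ± 0.22 (limma standard error), with a 95% interval of -1.35 to -0.37, which is a ratio of 0.551 (0.393 to 0.772). Its adjusted p was 0.127 by limma, with Benjamini-Hochberg adjustment across the 22519 probe sets. The other Mb probe set lay near the bottom of the array (brighter than 7.78% of all probe sets) and ranged from 5.50 to 8.51 with no separation of the groups.

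Ckmt2 had 1 probe set, brighter than 99.5% of all. Its log2 signal was 16.77, 16.58 and 16.45 on the young arrays and 15.82, 15.47 and 16.32 on the aged arrays. The groups did not overlap, and aged replicate 53 came close to young replicate 3 while the other aged arrays lay well below. The change was -0.73 ± 0.24 (95% interval -1.26 to -0.21, a ratio of 0.602), with an adjusted p of 0.279 by limma. From high to low the arrays stood in one order for both genes: young replicates 1, 2 and 3, then aged replicates 53, 51 and 52.

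Both results turned on aged replicate 53. Without it Mb was at -1.01 (adjusted p = 0.0273) and Ckmt2 at -0.96 (adjusted p = 0.0306), and both passed, along with 1.52% of all tested probe sets (1.16% lower in aged muscle). That array also had the highest ratio of 3 prime to 5 prime control signal, a sign of RNA or label quality, at 2.86 on the log2 scale, against 2.00 and 2.11 on the other aged and 1.71 to 1.77 on the young arrays. With this ratio as a covariate Mb was at -1.18 (adjusted p = 0.0997) and Ckmt2 at -1.23 (adjusted p = 0.0739). Every aged array had a higher ratio than every young array, so the ratio and age are confounded. Within groups the ratio varied mainly through aged replicate 53, so these values also rest on that array. The same limits hold wherever this covariate is used below. Aged replicates 52 and 53 were run on fluidics station 2, under another protocol name, and all other arrays on station 1. Within station 1, which holds 1 aged array (replicate 51), Mb was at -0.97 and Ckmt2 at -0.79. Their adjusted p was 0.195 and 0.363 with the station in the model, and 0.0996 and 0.125 from the station 1 arrays alone, where the lone aged array is assumed to vary like the young ones. The part of RNA quality and station in these values was not tested further.

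Bright probe sets leaned low in aged muscle. Of the 322 tested probe sets at least as bright as that of Mb, 73.0% had a negative change, their median was -0.18, and on 29.8% all aged arrays lay below all young ones. For 2.48% of them the difference passed the test as lower in aged muscle. All 10 muscle fibre markers had a negative change (median -0.58), 1 of them, Actn2, fell (-1.88, adjusted p = 0.0037), and their summed signal was 2404970 to 2936550 on the young and 1760370 to 2185720 on the aged arrays. How far these shifts bear on Mb and Ckmt2 was not tested. In whole muscle, fewer fibres of a type and less RNA per fibre cannot be told apart.

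**Figure D2:**
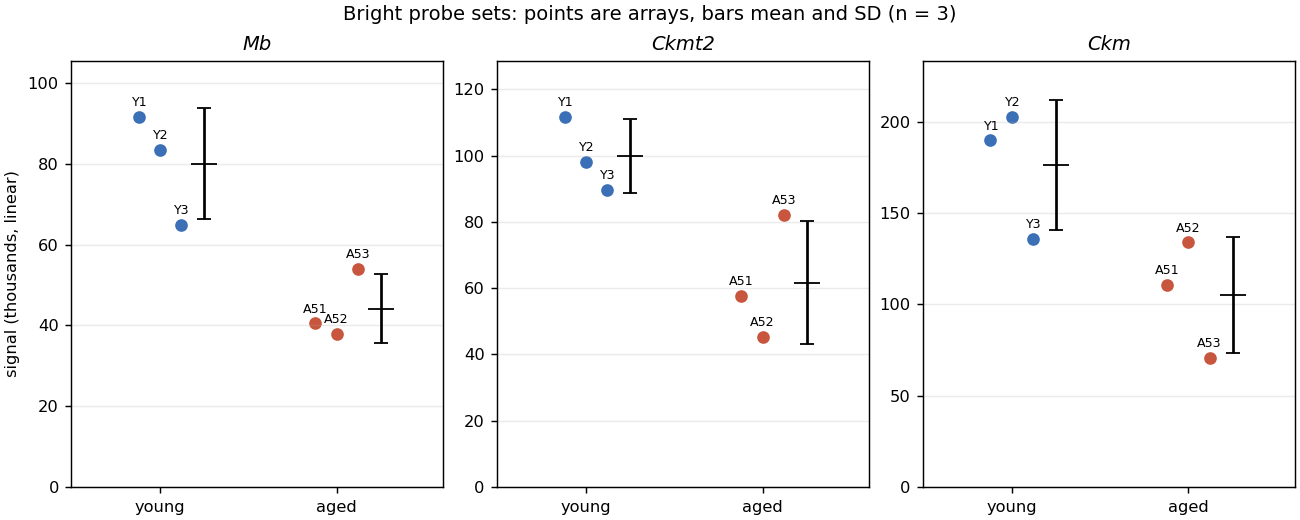
Linear signal (vertical axis from 0, in the unit printed on it) of Mb, Ckmt2 and the cytosolic kinase Ckm on the 3 young (blue, Y) and 3 aged (red, A) arrays, with the mean and SD of each group (n = 3) beside the points. For each gene every young array lies above every aged array, and aged replicate 53 is the highest aged array for Mb and Ckmt2 and the lowest for Ckm.

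Ckm, the muscle creatine kinase of the cytosol, is no member of the set and was compared because it works with Ckmt2 in one energy shuttle. It stood at 17.54, 17.63 and 17.05 on the young and 16.76, 17.03 and 16.11 on the aged arrays. Its change was -0.77 ± 0.27 (adjusted p = 0.32), and its groups did not overlap. The log2 ratio of Ckmt2 to Ckm within an array was -0.80 ± 0.23 in young and -0.77 ± 0.90 in aged muscle (SD, n = 3). The difference, 0.04, did not pass (exact permutation test, two-sided, p = 0.9, where 3 against 3 arrays cannot go below 0.1).

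The coactivator Ppargc1a had 5 probe sets, 4 of them above the filter. The brightest stood at 12.53, 11.96 and 12.53 on the young and 11.51, 11.35 and 13.08 on the aged arrays, so that aged replicate 53 was the highest of all 6 and the other aged arrays the lowest. Its change was -0.37 ± 0.42 (95% interval -1.28 to 0.55, adjusted p = 0.806). The other 3 tested probe sets were at -0.01, -0.10 and -0.52, with the groups overlapping on each. The tightest of these, at -0.10, had an interval of -0.79 to 0.59. The fifth, dim, probe set ran from 5.49 to 10.43 among the young arrays alone. Without aged replicate 53 the brightest probe set was at -0.91, and with the RNA quality covariate at -1.53, neither past the test (adjusted p = 0.227 and 0.166).

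Ppargc1b, its close relative, had 1 probe set, at 12.53, 12.49 and 12.30 on the young and 12.36, 12.23 and 11.66 on the aged arrays. Aged replicate 51 lay above young replicate 3, so the groups overlapped. The change was -0.35 ± 0.28 (95% interval -0.97 to 0.26, adjusted p = 0.711), and it was -0.14 without aged replicate 53 and 0.10 with the RNA quality covariate. The log2 ratio of Ppargc1a to Ppargc1b differed by -0.01 between the groups (exact permutation p = 1). On aged replicate 53 this ratio was 1.42, against -0.86 and -0.89 on the other aged arrays.

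**Figure D3:**
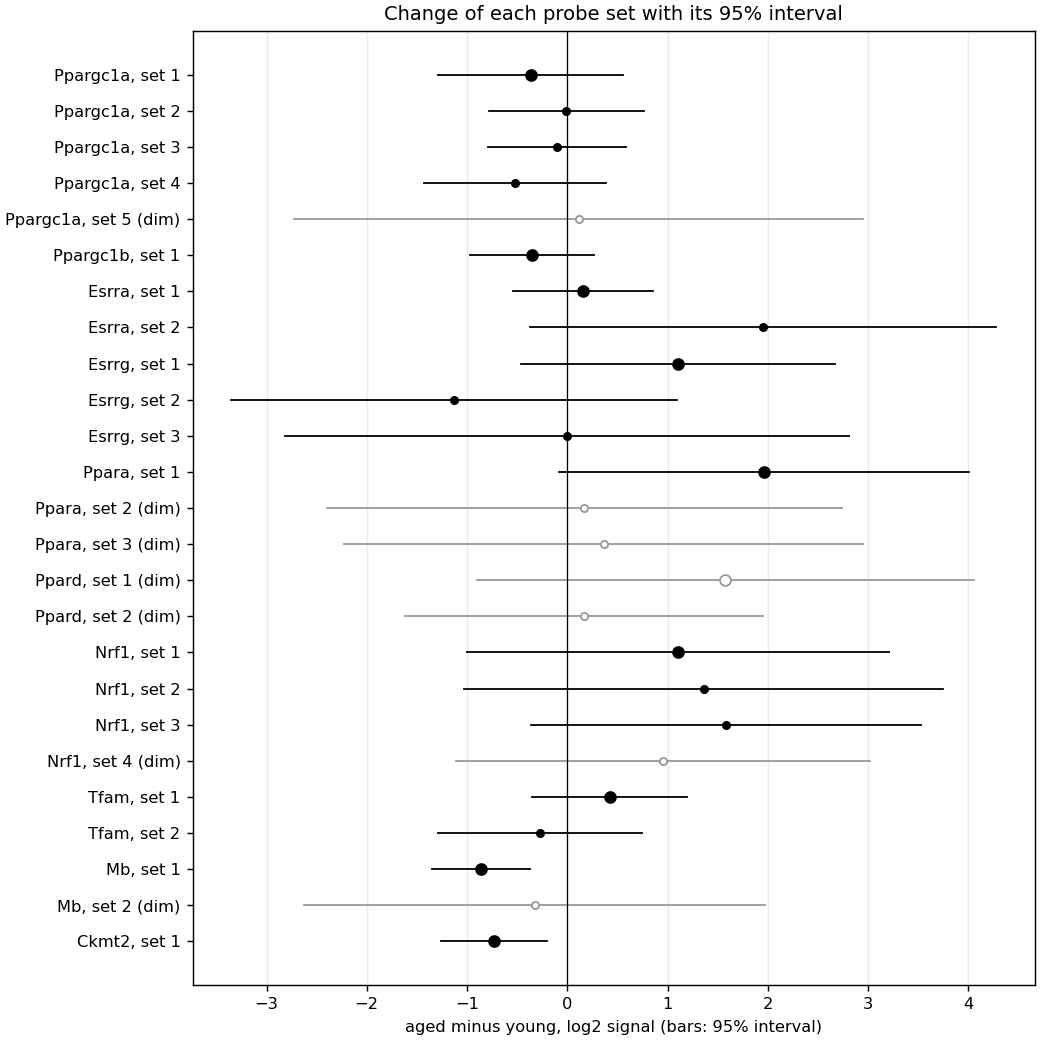
Change of each of the 25 probe sets, aged minus young in log2 signal (horizontal axis), with its 95% interval; the probe sets of a gene are numbered from bright to dim, large points are the brightest, and open grey points lie below the filter and were not called. The intervals of Mb set 1 and Ckmt2 lie below 0, and the others include 0.

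The estrogen-related receptor α, Esrra, was measured tightly by its brighter probe set, at 11.56, 11.14 and 11.24 on the young and 11.45, 11.54 and 11.43 on the aged arrays. The aged arrays lay close together and inside the young range. The change was 0.16 ± 0.32 (95% interval -0.54 to 0.86, adjusted p = 0.893). On the dimmer probe set all aged arrays (10.17 to 10.55) lay above all young arrays (9.83, 9.75 and 5.68). Its change of 1.95 ± 1.07 (adjusted p = 0.577) rested on young replicate 3, which was 17.8-fold below young replicate 1.

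The receptor γ, Esrrg, had 3 tested probe sets that disagreed. Its brightest was at 10.24, 7.95 and 9.42 on the young and 10.48, 10.68 and 9.77 on the aged arrays, a change of 1.11 ± 0.72 (95% interval -0.46 to 2.67, adjusted p = 0.639). The others were at -1.13 ± 1.02 and -0.0019 ± 1.29, and the mean of all 3 was at -0.0077. On the last of them the signal spread over 11.2-fold among the young and 23.6-fold among the aged arrays. The log2 ratio of Esrra to Esrrg was 2.11 ± 0.97 in young and 1.17 ± 0.44 in aged muscle (SD, n = 3), a difference of -0.95 (exact permutation p = 0.2).

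Ppara, the receptor that controls fat oxidation during fasting, had 1 tested probe set. It stood at 7.15, 10.40 and 7.63 on the young and 10.31, 10.66 and 10.09 on the aged arrays. Young replicate 2 lay among the aged arrays and the other young arrays were far below. The change was 1.96 ± 0.94 (95% interval -0.09 to 4.002, adjusted p = 0.517), and it was 1.34 and 2.96 without young replicate 1 and 2. Its 2 dim probe sets were at 0.17 and 0.36. Ppard, a receptor that acts on fat oxidation in muscle, was seen only through 2 dim probe sets, brighter than 14.1% and 2.8% of all. The brighter stood at 8.12, 6.01 and 5.99 on the young and 8.16, 9.50 and 7.19 on the aged arrays, a change of 1.58 (95% interval -0.90 to 4.05) that was not part of the test. The log2 ratio of Ppara to Ppard differed by 0.38 between the groups (exact permutation p = 0.9).

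Nrf1 had 4 probe sets, 3 of them tested, with changes of 1.11, 1.36 and 1.58 and adjusted p of 0.736, 0.712 and 0.588. The brightest was at 10.07, 11.03 and 6.67 on the young and 10.91, 10.38 and 9.79 on the aged arrays. A single young array lay far below the rest on each of the 3: replicate 3 on the brightest and on the next (6.09, against 10.48 and 9.68), and replicate 2 on the third (6.85, against 9.54 and 9.40). On the third the groups did not overlap. Without young replicate 3 the brightest probe set was at -0.19.

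Tfam had 2 tested probe sets of opposite sign. The brighter stood at 10.97, 10.87 and 10.95 on the young and 11.55, 10.97 and 11.55 on the aged arrays, with aged replicate 52 level with the highest young array. Its change was 0.43 ± 0.36 (95% interval -0.35 to 1.198, adjusted p = 0.723). The dimmer was at -0.28 ± 0.47 (adjusted p = 0.871).

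Among the members limma's standard errors followed brightness. The model draws each spread toward a trend with brightness, so part of this is built in. The 10 probe sets above the 0.75 quantile of brightness, which covered 6 genes, had standard errors of 0.22 to 0.47. Of these 10, 8 had a negative change, beside 53.6% of all probe sets above that level. The 8 tested probe sets below that level had standard errors of 0.72 to 1.29, and 6 of them had a positive change. Over all tested probe sets 49.5% were negative. Several of these member probe sets report the same gene, and nothing is read from the counts of signs. Of the 18 tested, 6 spread over more than 8-fold within a group, against 14.1% of all tested probe sets. All 6 were among the 8 below the 0.75 quantile. Of all tested probe sets, 25.7% below that level and 2.5% above it spread so widely. For the 9 tested genes, each by its brightest probe set, 4 changes were negative and 5 positive with a median of 0.16, beside 0.0079 over all tested probe sets.

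Around the members, 5 lists of the same pathway held 112 tested genes, of which 0 rose and 2 fell, and the others did not pass. The lists were chosen with earlier results of these data known. The 2 were Rcan1, an inhibitor and target of the phosphatase calcineurin, and Fabp3, a fatty acid carrier of muscle and heart. Rcan1 was at 13.16, 13.22 and 13.09 on the young and 11.82, 11.40 and 11.94 on the aged arrays, a fall of more than the spread of either group (-1.43 ± 0.26, adjusted p = 0.0191 by limma). Its adjusted p was 0.088 to 0.131 when any young array or aged replicate 52 was left out, and 0.0786 with the RNA quality covariate (-1.70). Within station 1, whose 1 aged array is replicate 51, it was at -1.34 (adjusted p = 0.116 with the station in the model and 0.0555 from station 1 alone). Fabp3 was at 14.65, 14.55 and 14.35 on the young and 13.56, 13.01 and 12.99 on the aged arrays (-1.33 ± 0.23, adjusted p = 0.0138 by limma). Leaving out the same arrays gave an adjusted p of 0.0505 to 0.105, and the RNA quality covariate 0.169 (-1.15). Within station 1 it was at -0.96 (adjusted p = 0.145 and 0.0893 in the same order). Other genes of the lists passed there: Idh3a and Ndufs1, lower in aged muscle, with the station in the model, and these and Ak1 from station 1 alone. After quantile normalization Pink1 passed as higher (0.87, adjusted p = 0.0295).

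Of 17 tested genes for transcription, replication and packaging of mitochondrial DNA, 0 passed (median change -0.13, 12 negative). That median was -0.03 without aged replicate 52, -0.20 without aged replicate 53 and -0.37 with the RNA quality covariate. Of these genes Tfb1m and Tfb2m were at -0.20 ± 0.41 and -0.20 ± 0.52, and Gabpa, the ETS factor whose core motif lies before Tfam, was at 0.09 ± 0.49. Pprc1, the remaining coactivator of the PGC-1 family, was dim and was not part of the test (0.04 ± 1.09). Of 32 tested partners, repressors and upstream signals Rcan1 fell and 31 did not pass (median 0.08). The sign of that median was not stable: it was -0.03 after median centring, -0.15 within station 1, -0.14 without aged replicate 53, 0.28 without aged replicate 51 and -0.31 with the RNA quality covariate. Perm1, a muscle protein induced by the coactivators, was at -0.03 ± 0.31. Of 32 tested target genes of these regulators Fabp3 fell and 31 did not pass (median -0.26, 22 negative). That median was -0.14 after quantile normalization, -0.37 after median centring, -0.39 within station 1 and -0.37 without young replicate 3. Pdk4, which holds back glucose oxidation, was at -0.48 ± 0.29, the uncoupling protein Ucp3 at -0.25 ± 0.51 and the lipase inhibitor Angptl4 at 1.00 ± 0.69. Of 8 tested genes of the creatine kinase system and globins 0 passed (median -0.25, 6 negative). Their median was -0.18 after quantile normalization, -0.46 within station 1 and -0.40 without aged replicate 53. Of 23 genes of mitochondrial fusion, import and turnover 0 passed, with a median of -0.10 that was 0.02 after quantile normalization, -0.27 within station 1, and from -0.17 (without aged replicate 53) to 0.04 (without aged replicate 51) with 1 array left out. It was 0.01 without young replicate 2 and 0.0028 without aged replicate 52.

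**Figure D4:**
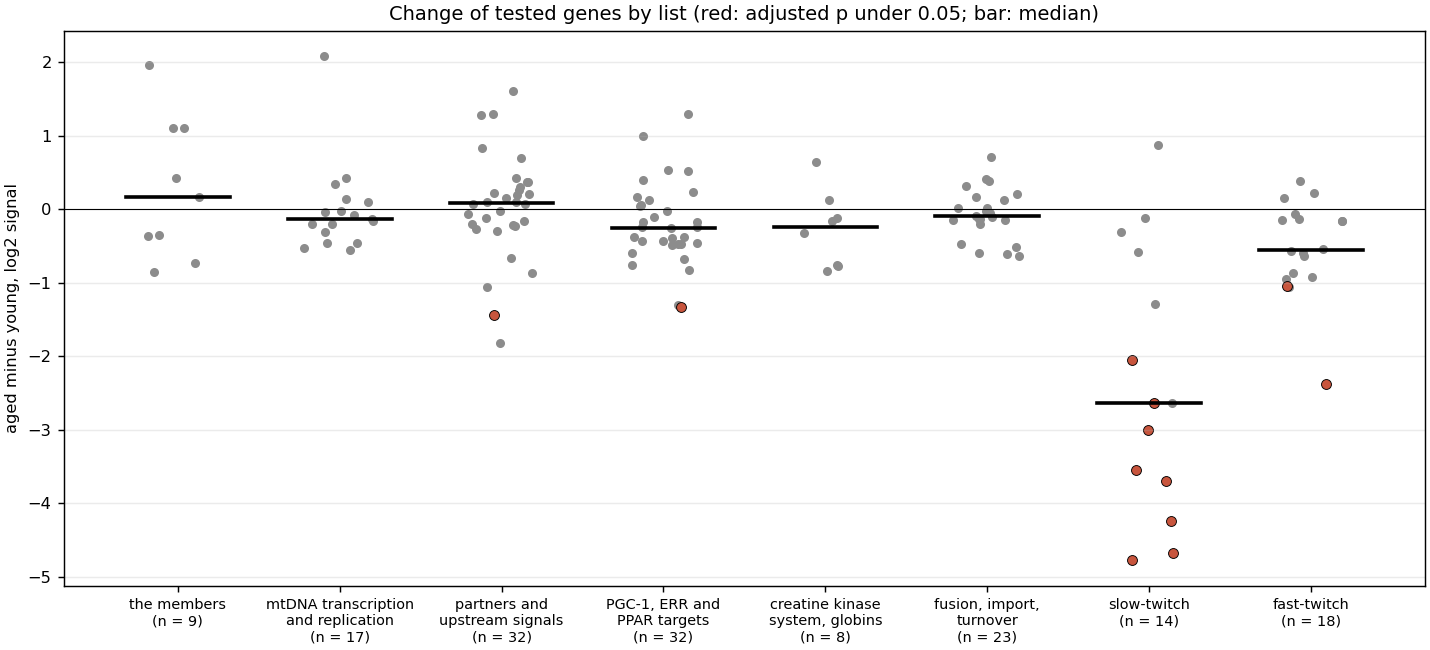
Change, aged minus young in log2 signal (vertical axis), of each tested gene by list (horizontal axis, n tested genes below each name), with red points for genes past an adjusted p of 0.05 and a bar at the median. The members spread around their median of 0.16 with none past the test, and slow-twitch genes centre on -2.63 with 8 past it.

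Slow-twitch fibre genes also mark oxidative fibres. Of 14 tested 8 fell, 0 rose and 6 did not pass, with a median of -2.63. Over all tested probe sets 0.742% passed as lower and 0.311% as higher. Tnnt1, Myh7, Myl3 and Myl2 fell furthest among those that passed. Myh7b, 1 of the 6, had a positive change (0.87), with all aged arrays above all young ones. The summed signal of the 14 genes was 179042 to 216727 on the young and 34490 to 39469 on the aged arrays. Of 18 fast-twitch genes 2 fell, Myh2, a heavy chain of fast oxidative fibres (-2.38), and the light chain Myl1 (-1.04), and 16 did not pass (median -0.56). Their changes were not tested against those of Mb and Ckmt2. Markers of other cells also moved. Of 13 fibroblast and tendon markers 10 fell and 0 rose, among them Col1a1 and Tnmd (summed signal 875757 to 1094750 on the young and 129970 to 140739 on the aged arrays), and of 8 adipocyte markers Adipoq, Retn, Fabp4 and Thrsp, 4 in all, rose and 0 fell (679054 to 803776 and 757226 to 939032). Of 6 macrophage and 6 endothelial markers 0 passed, and the 1 tested red blood cell marker did not pass. The part of these cells in the values of the members was not tested.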

How the data were processed

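Biotin-labelled cRNA from total RNA was put on 6 arrays, per the labels' protocols. The authors deposited a linear intensity for each probe set. The submitters' processing notes name MAS5, without version or settings. Each array's mean, trimmed by 2% at each end, was 1500. The run settings were read only for fluidics protocol and station.

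Intensities were taken to log2 as deposited. Of 45101 probe sets 64 controls were left out, and 22519 at or above the median of mean log2 signal were tested with limma 3.58.1 in R 4.3.3 (lmFit, eBayes with trend, two-sided, Benjamini-Hochberg, threshold 0.05). Changes of dim probe sets come from the same model without the filter. The number of arrays limits the precision. A gene stands for its brightest probe set. Ratios within arrays of 4 pairs of genes were compared with exact permutation tests, and none passed after adjustment (adjusted p 0.8 to 1). The text names all members, up to 4 called genes per list, and 9 genes always named. It also names, after their values were seen, list genes that passed only in an alternative or whose groups did not overlap. The members and lists were chosen with earlier results of these data known. The model was tested on simulated data. Figures were drawn with matplotlib 3.10.9.

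Tried as alternatives were 2 scalings (quantile, median centring), the filter dropped or raised, a pseudocount of 219, array weights, other spread models, station or RNA quality as a covariate, station 1 alone, each array left out, cross-hybridising probe sets left out, and the mean of a gene's probe sets. The median change of the tested probe sets was 0.0079, and it moved to -0.02 with quantile scaling and -0.11 with median centring.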

Additional observations from a re-analysis of the deposited data

How the results depend on the processing

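Mb and Ckmt2 kept a negative change in all 19 alternatives, from -1.18 to -0.59 and from -1.23 to -0.53. Most of these alternatives could not turn the sign. The filters and spread models leave the change as it was, and as the groups do not overlap, leaving arrays out keeps it negative. Of the member probe sets 0 to 2 passed with 1 array left out, 2 of them (Mb and Ckmt2) without aged replicate 53, and 0 passed in each other alternative. After median centring, which shifts the median of tested probe sets to -0.11, Mb was at -0.98 and Ckmt2 at -0.85. With each gene taken by its brightest probe set, directions turned for Ppargc1b with the RNA quality covariate (0.10), for Esrrg with the mean of its probe sets (-0.0077) and for Nrf1 without young replicate 3 (-0.19, in a range of -0.19 to 1.99 with 1 array left out). Quantile scaling also turned a further tested probe set of Ppargc1a (-0.010 to 0.0057), its dim probe set (0.11 to -0.012) and the dimmer probe set of Ppard (0.17 to -0.026). Genes of the 5 lists past the test numbered 1 after median centring, 0 without the trend of spread with brightness, 0 in an unmoderated linear model and 0 with the RNA quality covariate. At an unadjusted p under 0.05 there were 9, 15 and 20 in the 3 alternatives with 0. Of the 2 that passed with the station in the model and the 3 from station 1 alone, 0 were Rcan1 or Fabp3. With 1 array left out 0 to 3 passed, with 0 lacking young replicate 1, 2 or 3 or aged replicate 52. With all probe sets of a gene averaged, the differences of within-array ratios turned to 0.18 (Ppargc1a over Ppargc1b), 1.06 (Esrra over Esrrg), -0.041 (Ppara over Ppard) and -0.29 (Ckmt2 over Ckm). With 1 array left out they ran from -0.77 to 0.38, from -1.34 to -0.41, from -0.95 to 1.74 and from -0.45 to 0.44 in the same order. The cause was not tested. Dim probe sets limit what can be seen for Esrrg, Ppara, Ppard and Nrf1. No paired analysis was possible because the groups share no replicate numbers.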

Other observations

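Over the 5 pathway lists young and aged arrays did not overlap for 23 of 112 tested genes (20.5%, beside 16.2% of all tested probe sets). Of these genes 5 were higher and 18 lower in aged muscle, beside 7.41% and 8.74% of all tested probe sets. Among the 322 tested probe sets at least as bright as that of Mb, 29.8% were lower without overlap. Nothing particular to the lists is read from the split. Apart from Rcan1 and Fabp3 none of the 23 genes passed limma's test. By the same test 15 of the 112 had an unadjusted p under 0.05, beside 10% of all tested probe sets.

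The 16 lower genes that did not pass ranged over several functions. Cycs, Cox4i1, Sdhb and Ndufs1, of the respiratory chain, were at -0.46 ± 0.23, -0.40 ± 0.20, -0.43 ± 0.20 and -0.83 ± 0.28 (adjusted p 0.286 to 0.543). Ldhb, the lactate dehydrogenase subunit of oxidative fibres, was at -0.76 ± 0.21 (adjusted p = 0.157). Of energy transfer, Ckm, Gamt and the adenylate kinase Ak1 were at -0.77, -0.76 and -0.84. Mitochondrial division, import and proteolysis gave Dnm1l (-0.47), Timm17a (-0.51) and Afg3l2 (-0.64). The regulators among them were Ncoa2 (-0.86), Mef2a (-0.29), Hdac4 (-1.82) and Tfeb (-1.06), and Fndc5 was at -1.302.

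The 5 higher genes were Pink1, a kinase that tags damaged mitochondria for removal (0.71 ± 0.19, adjusted p = 0.14), the lipid droplet protein Plin2 (1.296 ± 0.39, adjusted p = 0.207), the glucose transporter Slc2a4 (0.52 ± 0.23, adjusted p = 0.473), Prkab2, a subunit of the energy sensor AMPK (0.83 ± 0.27, adjusted p = 0.261), and Mterf1a (2.08 ± 1.01, adjusted p = 0.527). These genes are named after their values were seen.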
